A study of Danio rerio with 48 samples.

Results

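The genes followed here have been tied to the loss of SMN in motor neurons and at their synapses, and their RNA was measured by RNA-Seq in zebrafish larvae homozygous for mutations in 7 members of the SMN complex. They were *chodl*, *coro1ca*, *pls3*, *uba1*, *tmem41b*, *agrn*, *nrxn2a* and *nrxn2b*, picked by symbol with no cutoff on a measured value. The choice was made with earlier results of these data known. All 8 of 8 were found among the 34707 Ensembl genes of the deposited tables, and all 8 passed the filter on low counts in every comparison. The identifier used for *coro1ca* (ENSDARG00000035598) shares the symbol CORO1C with a second identifier in the gene table. It was taken as *coro1ca* because the study's supplementary tables give the name *coro1cb* to the other.

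The SMN complex assembles spliceosomal small nuclear ribonucleoproteins, and in humans the loss of SMN1 causes spinal muscular atrophy, a disease of spinal motor neurons. Some of the genes followed here ease the phenotypes of SMN-deficient animals when their level is raised, and others are transcripts whose splicing, level or protein is altered when SMN is low. The actin-binding proteins plastin 3 (*pls3*) and coronin 1C (*coro1ca*) belong to the first kind. Stasimon (*tmem41b*), neurexin 2 (*nrxn2a*, *nrxn2b*) and chondrolectin (*chodl*) have been described as transcripts affected by SMN loss. The ubiquitin-activating enzyme Uba1 and agrin (*agrn*), the nerve-derived organizer of the neuromuscular junction, have been raised in SMN-deficient animals to improve muscle and motor function.

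The 33 RNA-Seq libraries were made from whole larvae of the TAB-5 background at 7 dpf. The groups were homozygous *smn1*, *gemin3*, *gemin5*, *gemin2*, *gemin4*, *gemin6* and *gemin7* mutants and wild-type siblings, with 3 libraries in each. The *smn1*, *gemin3* and *gemin5* mutants had wild-type siblings of their own. The other 4 mutants shared a control of 3 wild-type libraries, 1 each from the *gemin4*, *gemin6* and *gemin7* families, so that *gemin2* mutants had no sibling control and the 4 comparisons were not independent. In every comparison of *gemin2* mutants with this control, the mutation therefore cannot be told apart from the family. Per the study's methods, every group, wild type included, had been exposed to copper sulfate, which kills lateral line hair cells, at 5 dpf, and a piece of the caudal fin had been removed for genotyping. The alleles, 1 for each gene, were *smn1* fh229, *gemin2* hg108, *gemin3* hg105, *gemin4* hg109, *gemin5* hg80, *gemin6* hg110 and *gemin7* hg111. Genotyped larvae from a cross of a single heterozygous pair were pooled. Whether the 3 libraries of a group came from separate crosses is not given in the sources used here, so p-values measure only the spread between these libraries. In whole larvae, fewer cells of a type and less RNA per cell cannot be told apart.

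The 33 libraries held between 30045993 and 88871247 counts (median 36496510). The 6 libraries of the *gemin3* family were sequenced on a NovaSeq with 150-base reads and had totals of 61452820 to 88871247, against 30045993 to 60650366 for the 27 others, sequenced on a HiSeq with 125-base reads. Counts of a gene of interest per library went from 92 (*tmem41b*) to 21735 (*uba1*), and the uncertainty that RSEM gives for dividing reads between genes was 0 reads for all 8 genes in every library. The mutated gene itself lay below all control libraries in *gemin2* (28.6% ± 2.55 of control, SD, n = 3), *gemin3* (listed as *ddx20*, 49.7% ± 0.726), *gemin5* (59.1% ± 12.9) and *gemin7* mutants (62.8% ± 7.84), and it was not below all of them in *smn1* (99.3% ± 6.01), *gemin4* (97.4% ± 13.4) and *gemin6* mutants (95.3% ± 15.4). Of 12 identifiers matched to motor neuron markers, 11 had counts in every library, and the exception was 1 of 2 identifiers of *slc5a7*, the choline transporter.

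The levels of the 8 genes were compared per transcript length, as deposited TPM (transcript abundance scaled to a fixed total in each library), over the 12 wild-type libraries. *uba1* was the most abundant, with a mean of 109 TPM ± 13.4 (SD, n = 12), followed by *pls3* with 38.2 TPM ± 11.98. These stood apart from each other and from the rest: the lowest *uba1* library (85.8 TPM) lay above the highest *pls3* library (56.9 TPM), and the lowest *pls3* library (23.4 TPM) lay above every library of the other 6 genes. The pooled means of the others were 12.4 TPM ± 3.75 for *agrn*, 12.1 TPM ± 1.30 for *coro1ca*, 10.3 TPM ± 7.38 for *nrxn2a*, 8.498 TPM ± 6.20 for *nrxn2b*, 7.26 TPM ± 1.26 for *chodl* and 3.74 TPM ± 1.40 for *tmem41b*, but their order depended on the family. In the *smn1* wild type *nrxn2a* (17.05 to 20 TPM) lay above *agrn* (11.7 to 16.1 TPM) and *coro1ca* (12.2 to 14.03 TPM), which overlapped. In the *gemin3* wild type *nrxn2a* (1.94 to 3.68 TPM) lay below *agrn* (9.05 to 9.52 TPM) and *coro1ca* (9.64 to 13.7 TPM), and it overlapped *nrxn2b* (1.69 to 3.52 TPM) and *tmem41b* (2.42 to 2.95 TPM). *tmem41b* had the lowest mean in the *smn1*, *gemin5* and shared wild type, and *nrxn2b* in the *gemin3* wild type. The wide spread of the neurexins came from differences between families, which are described further on.

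**Figure D1:**
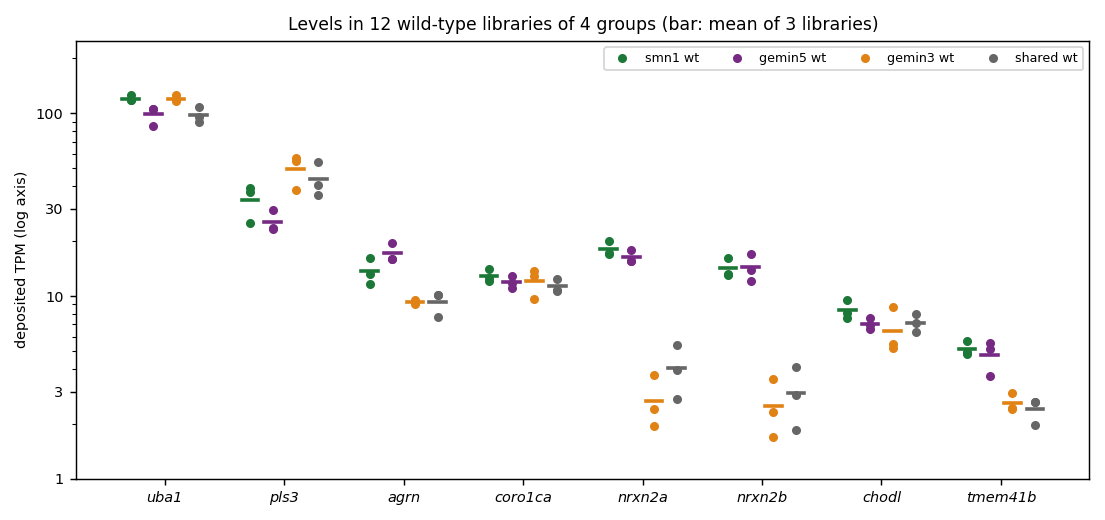
Deposited TPM (log axis) of the 8 genes in the 12 wild-type libraries, with points for libraries and bars for the mean of the 3 libraries of each of 4 wild-type groups. The neurexins and *tmem41b* were higher in the *smn1* and *gemin5* families than in the other groups. The group means of *coro1ca* lay between 11.3 and 12.9 TPM and those of *chodl* between 6.45 and 8.42 TPM.

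None of the 8 genes passed the main test, which did not pair libraries by replicate number, in any mutant. It compared RNA counts per gene in whole larvae, and neither splicing nor protein was tested here. With edgeR's quasi-likelihood test and Benjamini-Hochberg adjustment over all genes, 0 of 8 had an adjusted p-value below 0.05 in each of the 7 comparisons. The share of all tested genes called by the same rule was 0.0921% in *smn1*, 0.978% in *gemin3*, 0.907% in *gemin5*, 5.39% in *gemin2*, 0.0173% in *gemin4*, 0.0% in *gemin6* and 0.0% in *gemin7* mutants, which for 8 genes amounts to less than 1 call in each. DESeq2 likewise called 0 of 8 in every mutant, among 0.739%, 2.91%, 2.37%, 8.21%, 0.369%, 0.0764% and 0.276% of all genes in the same order. The count with an unadjusted edgeR p-value below 0.05 was 1 in *gemin3* (11.4% of all genes), 1 in *gemin5* (11.6%), 2 in *gemin2* (20.8%) and 0 in *smn1* (5.93%), *gemin4* (5.68%), *gemin6* (3.69%) and *gemin7* mutants (8.23%). The smallest adjusted p-value among these 56 edgeR tests was 0.135, for *tmem41b* in *gemin2* mutants. Same-numbered libraries deviated together in the *smn1*, *gemin3* and *gemin5* families, and these tests made no use of that. With the replicate number as a block, *pls3* was called in *gemin5* mutants (edgeR adjusted p = 0.0194), among 7.52% of all genes. The block fit called 0 of 8 in *smn1* and *gemin3* mutants. Its unadjusted edgeR p-values fell below 0.05 for 2 of 8 genes in *smn1* mutants, *pls3* (higher) and *nrxn2a* (lower). For *gemin3* the count was 3, namely *coro1ca*, *pls3* and *tmem41b*, all higher in the mutant. The same 3 genes passed this cutoff for *gemin5*, again all higher. The share of all genes with such p-values under the block was not counted, so nothing is concluded from these counts.

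The sizes of the differences were small. The 56 log2 fold changes lay between -0.30 and 0.54, and 54 of them were within 0.3 of 0. Their standard errors ran from 0.0745 to 0.306, with a median of 0.135. These errors and the intervals below are from the fits without the replicate block. With the block, the standard errors of all 8 genes were smaller in *smn1*, *gemin3* and *gemin5* mutants, where same-numbered libraries deviated together. None of the 95% intervals reached a 2-fold change in either direction, whereas 18 of the 56 reached a change of 1.5-fold or more. Of these 18, the intervals of *tmem41b* in *gemin2* and *gemin3* mutants left out 0 and the others included it. Of the 56, 6 had mutant libraries that did not overlap the control libraries. They were *tmem41b* in *gemin3* and *gemin2*, *coro1ca* in *gemin5*, *gemin2* and *gemin7*, and *chodl* in *gemin2* mutants. This was 1 of 8 genes in *gemin3*, 1 in *gemin5*, 3 in *gemin2*, 1 in *gemin7* and 0 in *smn1*, *gemin4* and *gemin6* mutants, against shares of all genes of 19.1%, 18.3%, 27.5%, 13.8%, 12%, 11.5% and 8.63%, respectively.

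**Figure D2:**
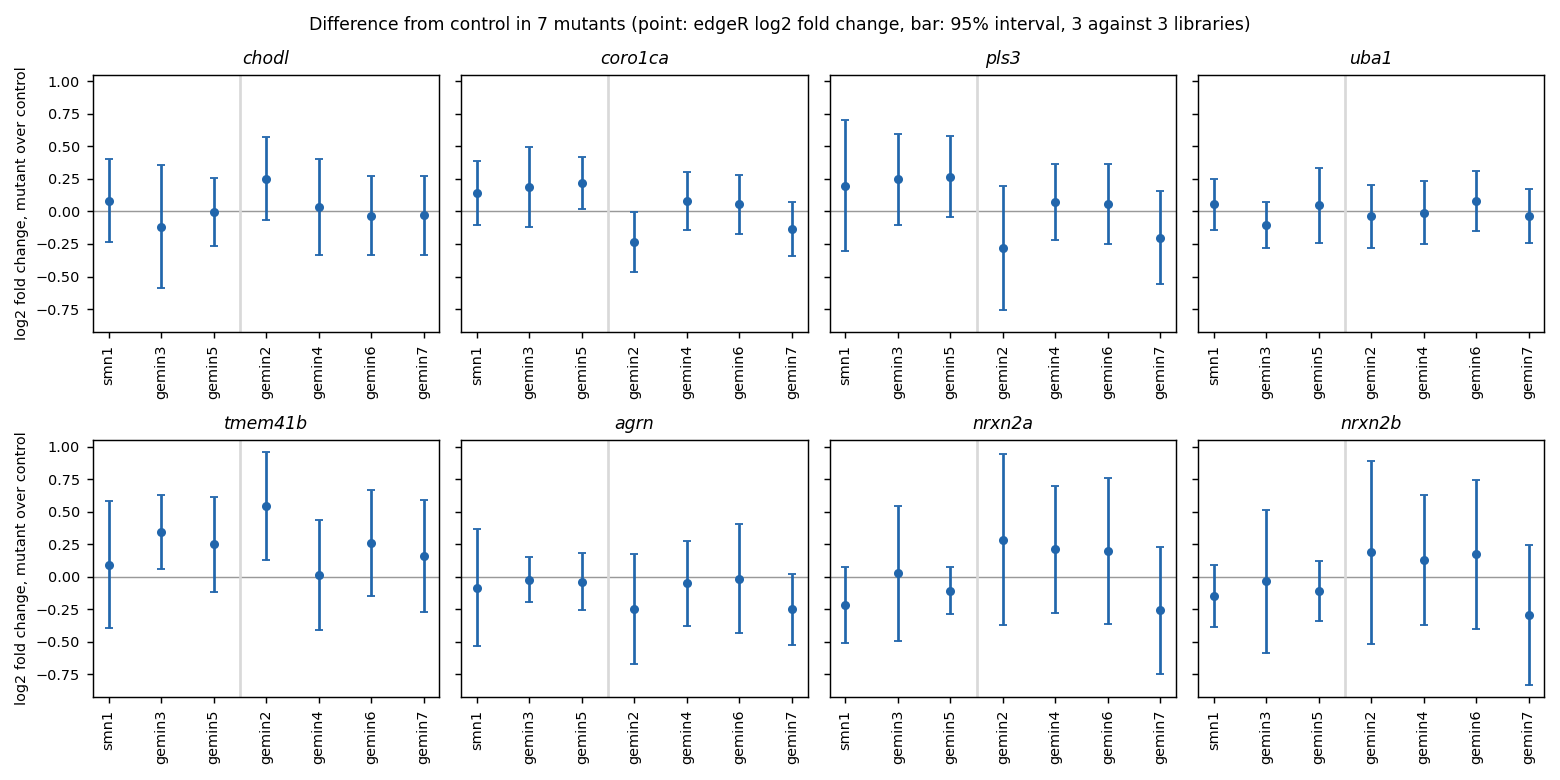
Log2 fold changes of the 8 genes in each of the 7 mutants against their control (points) with 95% intervals from edgeR (bars), 3 libraries against 3. All points lie between -0.30 and 0.54, and the only intervals that leave out 0 are those of *tmem41b* in *gemin3* and *gemin2* mutants and of *coro1ca* in *gemin5* and *gemin2* mutants. The intervals are from the fits without the replicate block, which gave smaller standard errors in *smn1*, *gemin3* and *gemin5* mutants.

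The actin-binding pair came first. *pls3* encodes an actin-bundling protein, and *coro1ca* encodes a coronin, which binds actin filaments and acts in their turnover and in endocytosis. Values by library are given as CPM, counts scaled to library size after TMM normalization over the 33 libraries, which compares libraries for 1 gene but not genes with each other. The 3 values of a group stand in the order of their replicate numbers. In *gemin5* mutants, *coro1ca* had 49.7, 57.3 and 49.4 CPM, and in their wild-type siblings 45.9, 46.6 and 41.9 CPM. All 3 mutant libraries were higher than all 3 of the wild type, with a log2 fold change of 0.22 (SE 0.0870, edgeR adjusted p = 0.381). The *smn1* mutants had 50.4, 55.4 and 45.9 CPM against 42.7, 49.8 and 45.1 CPM in the wild type. These overlapped, and the log2 fold change of *coro1ca* was 0.14 (SE 0.104). In the *gemin3* family, *coro1ca* had 66.6, 62.8 and 57.4 CPM in mutants against 57.2, 62.2 and 43.5 CPM in the wild type, a log2 fold change of 0.19 (SE 0.132).

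In *gemin2* mutants the order was the opposite. *coro1ca* had 36.5, 38.0 and 35.9 CPM there, below all of the shared wild type with 41.4, 45.0 and 43.3 CPM, and the log2 fold change was -0.24 (SE 0.101, edgeR adjusted p = 0.231). The 3 *gemin7* mutant libraries, with 39.8, 39.1 and 39.9 CPM, were also below the same 3 controls, with a log2 fold change of -0.13 (SE 0.0921, edgeR adjusted p = 0.715). *gemin4* mutants (43.8 to 47.7 CPM) and *gemin6* mutants (41.7 to 47.1 CPM) overlapped these controls, with log2 fold changes of 0.08 and 0.05.

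*pls3* had wider errors. In *gemin5* mutants it had 56.3, 48.5 and 62.4 CPM, and in the wild type 45.3, 39.9 and 53.8 CPM. These ranges overlapped, but in both groups replicate 2 was the lowest and replicate 3 the highest, and each mutant library was above the wild-type library of its number. The log2 fold change was 0.27 (SE 0.135, edgeR adjusted p = 0.514). With the replicate number as a block it was 0.27 (SE 0.0560, edgeR adjusted p = 0.0194), which was the only call among the 8 genes in that fit. Same-numbered libraries deviated together in the *gemin5*, *smn1* and *gemin3* families, and the block raised the share of all genes called there to 7.52%, 1.54% and 1.98%. The 1 of 8 is to be read against the first of these.

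In the *smn1* family, *pls3* had 76.0, 79.2 and 50.45 CPM in mutants and 65.7, 68.6 and 45.1 CPM in the wild type. Replicate 3 was low in both groups, and each mutant library was again above its same-numbered one, with a log2 fold change of 0.20 (SE 0.215), or 0.19 (SE 0.0583, edgeR adjusted p = 0.152) with the block. In the *gemin3* family the values were 142, 136 and 128 CPM against 124, 131 and 85.5 CPM, and the log2 fold change was 0.25 (SE 0.151, edgeR adjusted p = 0.584). The third wild-type library of that family stood apart here. It was also the highest of its group for *chodl*, *nrxn2a* and *nrxn2b*, the lowest for *pls3*, *coro1ca* and *tmem41b*, and its summed level of 19 neuron marker identifiers was 875 TPM, against 564 and 580 TPM in the other 2. Without it the log2 fold changes in *gemin3* mutants were 0.08 for *pls3*, 0.05 for *coro1ca* and 0.28 for *tmem41b*, and 0 of 8 genes were called. Of all genes, 2.49% were called by edgeR without this library, against 0.978% with it. The part of this library in the values was not tested beyond leaving it out.

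**Figure D3:**
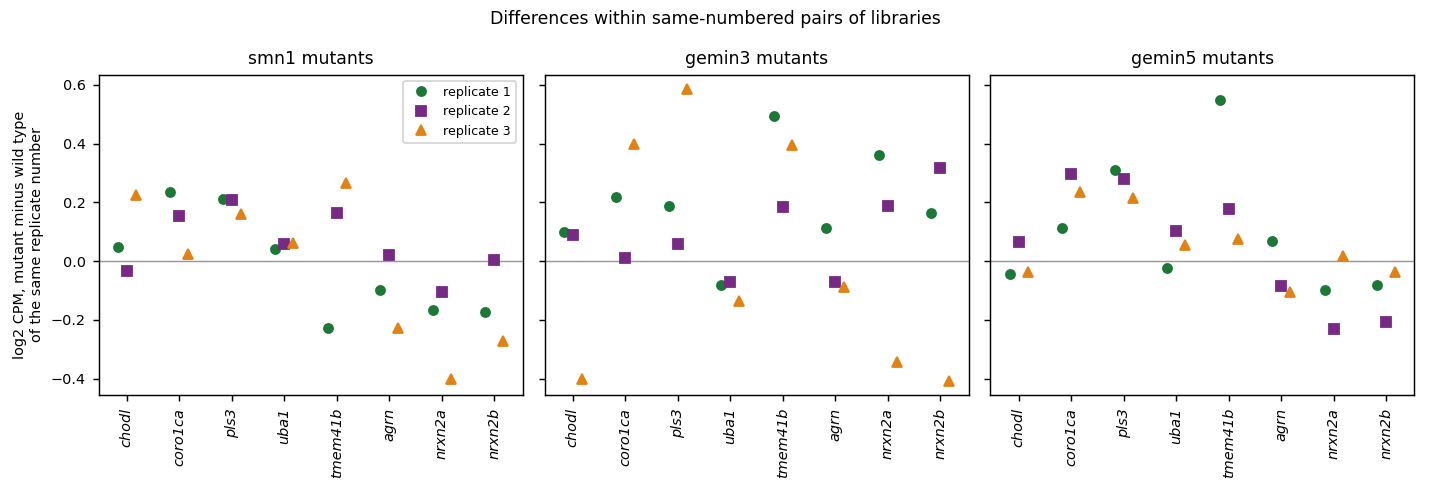
Log2 CPM of each mutant library minus that of the wild-type library with the same replicate number (y axis), for the 8 genes in *smn1*, *gemin3* and *gemin5* mutants. In each mutant *pls3* and *coro1ca* lie above 0 in all 3 pairs, as did 20.8%, 22.0% and 22.0% of all genes. The share over the 3 mutants together was not counted. *coro1ca* was only 0.01 above 0 in replicate 2 of *gemin3* and 0.02 in replicate 3 of *smn1* mutants. Without wild-type replicate 3 the *gemin3* log2 fold changes were 0.08 for *pls3* and 0.05 for *coro1ca*.

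Both *pls3* and *coro1ca* were higher in the mutant in all 3 same-numbered pairs of the *smn1*, *gemin3* and *gemin5* families. So were *uba1* in *smn1* mutants and *tmem41b* in *gemin3* and *gemin5* mutants, which makes 3 of 8 genes in each, against 20.8%, 22.0% and 22.0% of all genes. How many of all genes were higher in every pair of the 3 families together was not counted. Nothing is therefore concluded from *pls3* and *coro1ca* being higher in all of them. In mutants with the shared control, *pls3* had 52.7, 68.5 and 91.3 CPM in *gemin2*, 93.9, 84.4 and 92.5 CPM in *gemin4*, 84.3, 99.1 and 88.4 CPM in *gemin6* and 72.8, 64.2 and 89.2 CPM in *gemin7*. The control had 82.1, 101 and 75.7 CPM. All 4 groups overlapped it, with log2 fold changes of -0.28, 0.07, 0.06 and -0.20, respectively.

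Of 20 other identifiers of actin-binding and endocytic genes (plastins, coronins, profilins, cofilins and calcium sensors), 0 were called by edgeR in *smn1*, *gemin3* and *gemin5* mutants, where the list's median log2 fold change was -0.00, 0.00 and 0.03 beside 0.01, -0.01 and 0.00 for all genes. It likewise had 0 calls in *gemin4*, *gemin6* and *gemin7* mutants, with medians of -0.02, 0.05 and -0.08. In *gemin2* mutants, where 5.39% of all genes were called, 1 rose and 3 fell, and the median was -0.12 beside 0.00. *lcp1*, the plastin of white blood cells, had 11.5, 11.8 and 10.6 CPM there against 20.04, 22.0 and 21.4 CPM in the control and fell by 0.90 on the log2 scale (edgeR adjusted p = 0.00358). *coro1a*, the coronin of white blood cells, had 10.2, 11.8 and 12.7 CPM against 19.4, 23.6 and 21.9 CPM and likewise fell by 0.90 (edgeR adjusted p = 0.00953). Of 2 identifiers of *coro7*, a coronin of the Golgi, 1 rose. It went from 0.809, 0.757 and 0.854 CPM to 2.603, 2.48 and 1.28 CPM, a log2 fold change of 1.37 (edgeR adjusted p = 0.0361).

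*tmem41b* encodes a lipid scramblase of the endoplasmic reticulum that acts in the formation of autophagosomes. Its *Drosophila* counterpart, stasimon, was described as a gene with a minor-class intron whose splicing needs SMN. In *gemin2* mutants it had 4.59, 5.53 and 4.32 CPM, and in the shared wild type 2.70, 3.39 and 3.75 CPM. All 3 mutant libraries were above all 3 controls. The log2 fold change of 0.54 (SE 0.183) was the largest of the 56. Its edgeR adjusted p was 0.135 in the fit of 6 libraries and 0.0451 in the fit of all 33 libraries, in which 11% of genes were called. Over all alternatives it lay between 0.0451 and 0.409. The control held no *gemin2* wild type, and *tmem41b* of the other wild-type groups was 1.44-fold to 2.04-fold the shared one. Mutation and family cannot be told apart in this value.

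In *gemin3* mutants *tmem41b* had 6.27, 6.22 and 5.68 CPM against 4.44, 5.47 and 4.31 CPM in the wild type. These did not overlap, and the log2 fold change was 0.34 (SE 0.124, edgeR adjusted p = 0.353). In *gemin5* mutants it had 7.35, 7.56 and 7.99 CPM against 5.01, 6.67 and 7.58 CPM, which overlapped through the third wild-type library, with a log2 fold change of 0.25 (SE 0.158). *smn1* mutants had 5.14, 8.51 and 7.80 CPM and their wild type 6.02, 7.60 and 6.48 CPM, so the mutants held both the lowest and the highest value of the family. The log2 fold change of *tmem41b* was 0.09 (SE 0.207) there, 0.02 in *gemin4*, 0.26 in *gemin6* and 0.16 in *gemin7* mutants.

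*tmem41b* was thus above 0 in all 7 mutants, as were 3.53% of all genes, and 4 of the 7 values rest on the same controls. Leaving out 1 library took the value below 0 in *smn1* mutants, to -0.05 without mutant replicate 2, and in *gemin4* mutants, where the lowest was -0.11 without control replicate 1. With their own family's wild-type library as the only control, the value in *gemin7* mutants was -0.02. The transcript length that RSEM weighted by abundance was 2222 to 2289 bases in the *gemin3* family and 1816 to 2158 bases in the other 27 libraries. This length depends on which of the 3 annotated transcripts the reads were assigned to. The *gemin3* family differed from the others in sequencer and read length, and these cannot be told apart from the family. Within the *gemin3* family the mean length was 2283 bases ± 9.75 in mutants and 2267 bases ± 38.7 in the wild type, which overlapped.

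Among 8 identifiers of related scramblases and lipid transfer proteins of autophagy, *vmp1* was called, in *gemin5* mutants, where 0.907% of all genes were called. It encodes another scramblase of the endoplasmic reticulum and rose in *gemin5* mutants from 17.5, 16.4 and 18.0 CPM to 26.3, 25.0 and 22.8 CPM, a log2 fold change of 0.51 (SE 0.0848, edgeR adjusted p = 0.0450). The other 7 were not called in any of the 7 mutants. The list's median was -0.02 in *gemin5* mutants and between -0.12 and 0.06 in the other 6.

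*uba1*, the enzyme that activates ubiquitin at the start of the conjugation cascade, had log2 fold changes no farther from 0 than -0.10. In *smn1* mutants it had 228, 248 and 228 CPM and in their wild type 222, 239 and 218 CPM. The log2 fold change was 0.05 (95% interval -0.14 to 0.25). In *gemin3* mutants it was -0.10 (-0.28 to 0.07), in *gemin5* mutants 0.05 (-0.24 to 0.34), and in the 4 mutants with the shared control between -0.04 and 0.08. All groups of *uba1* overlapped their controls. The widest of its 7 intervals, that in *gemin5* mutants, reached 0.34.

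Other genes of ubiquitin activation and conjugation were called in *gemin3* and *gemin2* mutants. Of 17 identifiers, 1 rose in *gemin3* mutants (0.978% of all genes called), and in *gemin2* mutants (5.39% of all genes called) 3 rose and 1 fell. *uba7*, which in mammals activates the ubiquitin-like protein ISG15, rose in *gemin3* mutants from 9.51, 10.97 and 8.18 CPM to 15.5, 16.1 and 14.8 CPM (log2 fold change 0.68, edgeR adjusted p = 0.0468). It fell in *gemin2* mutants, from 5.45, 6.30 and 7.15 CPM to 2.51, 2.89 and 3.21 CPM (log2 fold change -1.14, edgeR adjusted p = 0.0107). In the same mutants *uba6*, the second enzyme that activates ubiquitin, rose from 10.2, 12.7 and 8.61 CPM to 20.7, 18.98 and 20.7 CPM (log2 fold change 0.94, edgeR adjusted p = 0.0129). Of 2 identifiers of *ubb*, a polyubiquitin gene, the one with the smaller p-value rose with a log2 fold change of 0.88 (edgeR adjusted p = 0.0252). The median of the list was 0.05 in *gemin2* mutants and between -0.01 and 0.07 in the other 6.

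*chodl* encodes a membrane lectin that acts in the outgrowth of motor axons in zebrafish. In *smn1* mutants it had 8.30, 6.73 and 7.71 CPM against 8.01, 6.90 and 6.59 CPM, which overlapped, and the log2 fold change was 0.08 (95% interval -0.24 to 0.40). The 3 *gemin2* mutant libraries, with 7.57, 7.35 and 8.49 CPM, were above the shared wild type with 5.88, 6.94 and 6.80 CPM, and the log2 fold change was 0.25 (SE 0.140, edgeR adjusted p = 0.354). The other 5 mutants had log2 fold changes of *chodl* between -0.12 and 0.04. In the *gemin3* family the value depended on the third wild-type library (8.81 CPM, against 5.23 and 5.54 CPM): it was -0.12 with it and 0.16 without it.

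*agrn* encodes agrin, the proteoglycan that motor nerve endings release and that clusters acetylcholine receptors through Lrp4 and MuSK. In *smn1* mutants it had 67.8, 90.9 and 56.4 CPM, and in their wild type 72.6, 89.6 and 66.1 CPM, which overlapped, with a log2 fold change of -0.08 (SE 0.192). The log2 fold change of *agrn* was -0.02 in *gemin3*, -0.04 in *gemin5*, -0.25 in *gemin2*, -0.05 in *gemin4*, -0.01 in *gemin6* and -0.25 in *gemin7* mutants, with standard errors between 0.0745 and 0.185 in these 6. It was below 0 in all 7, as were 5.64% of all genes. Leaving out 1 library took it above 0 in *smn1*, *gemin3*, *gemin5*, *gemin4* and *gemin6* mutants. In *gemin2* mutants the 3 libraries were far apart, with 60.03, 45.2 and 35.8 CPM, and overlapped the control (61.2, 58.0 and 47.5 CPM).

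Of 14 identifiers of the agrin pathway and the postsynaptic membrane, among them *musk*, *dok7*, *rapsn* and acetylcholine receptor subunits, 0 were called by edgeR in any of the 7 mutants. Their log2 fold changes were above 0 for 13 of 14 in *smn1*, 10 of 14 each in *gemin3*, *gemin5* and *gemin4*, 9 of 14 in *gemin6*, 7 of 14 in *gemin2* and 5 of 14 in *gemin7* mutants. Of all genes, 48.8% to 52.4% were above 0 across the 7 mutants. The list's median was 0.22 in *smn1* mutants beside 0.01 for all genes. Muscle markers, which the agrin pathway genes share their tissue with, were above 0 for 14 of 14 identifiers in *smn1* mutants (median 0.24). The count was 14 each in *gemin5* and *gemin4*, 12 in *gemin3*, 11 in *gemin7*, 9 in *gemin2* and 3 in *gemin6* mutants. Their summed level was 54281 to 61751 TPM in *smn1* mutants against 48627 to 51724 TPM in the wild type. In *gemin5* mutants it was 56022 to 58837 TPM against 46347 to 51183 TPM. In *gemin3* mutants it was 53489 to 58218 TPM against 41919 to 51008 TPM. All mutants with the shared control overlapped that control. The part of the muscle markers in the values of the agrin pathway was not tested.

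*nrxn2a* and *nrxn2b*, the 2 zebrafish copies of neurexin 2, encode presynaptic adhesion proteins that bind neuroligins across the synapse. In *smn1* mutants *nrxn2a* had 61.55, 55.0 and 46.1 CPM against 69.0, 59.2 and 60.8 CPM in the wild type. These overlapped, although each mutant library was below the one of its number, and the log2 fold change was -0.22 (SE 0.124, edgeR adjusted p = 0.926), or -0.22 (SE 0.0739, edgeR adjusted p = 0.181) with the replicate block. In the same libraries *nrxn2b* had 34.7, 34.0 and 29.5 CPM against 39.1, 33.9 and 35.6 CPM, a log2 fold change of -0.14 (SE 0.101). In *gemin5* mutants the log2 fold changes were -0.11 for *nrxn2a* and -0.11 for *nrxn2b*. The 3 mutant libraries were closer together for *nrxn2a* (56.2, 55.8 and 56.7 CPM) than those of the wild type (60.2, 65.6 and 56.0 CPM), and the groups overlapped.

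In *gemin3* mutants the log2 fold changes were 0.03 for *nrxn2a* (SE 0.225) and -0.03 for *nrxn2b* (SE 0.237). Leaving out 1 library put them between -0.15 and 0.31 for *nrxn2a* and between -0.25 and 0.27 for *nrxn2b*. With the shared control, errors on the neurexins were likewise larger than in *smn1* and *gemin5* mutants. *nrxn2a* had 14.8, 18.1 and 9.76 CPM in that control, 24.6, 15.7 and 11.9 CPM in *gemin2*, 18.6, 16.7 and 13.8 CPM in *gemin4*, 19.9, 12.7 and 16.7 CPM in *gemin6* and 12.1, 13.3 and 10.4 CPM in *gemin7* mutants. All 4 mutants overlapped the control, with log2 fold changes of 0.29, 0.21, 0.20 and -0.26 and standard errors of 0.212 to 0.286. For *nrxn2b* they were 0.19, 0.13, 0.17 and -0.30. These directions depended on single libraries. Without control replicate 3, *nrxn2a* was at -0.00 in *gemin4* and -0.01 in *gemin6* mutants and *nrxn2b* at -0.04, -0.09 and -0.04 in *gemin2*, *gemin4* and *gemin6* mutants, and without mutant replicate 1 the *gemin2* values were -0.03 for *nrxn2a* and -0.16 for *nrxn2b*. Against their own family's wild-type library alone, *nrxn2a* and *nrxn2b* were at -0.14 and -0.23 in *gemin6* and at 0.29 and 0.26 in *gemin7* mutants. The interval for *nrxn2a* in *gemin2* mutants, for example, ran from -0.37 to 0.94.

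Of 15 identifiers of other neurexins, neuroligins and presynaptic calcium channels, 0 were called by edgeR in any mutant. Their log2 fold changes were above 0 for 0 of 15 in *smn1*, 4 in *gemin3*, 1 in *gemin5*, 1 in *gemin2*, 0 in *gemin4*, 8 in *gemin6* and 2 in *gemin7* mutants, with medians of -0.16, -0.07, -0.12, -0.17, -0.16, 0.01 and -0.30. The corresponding medians of all genes were 0.01, -0.01, 0.00, 0.00, 0.00, -0.00 and -0.01. Among 19 neuron marker identifiers, 6 were above 0 in *smn1*, 6 in *gemin3*, 6 in *gemin5*, 10 in *gemin2*, 13 in *gemin4*, 12 in *gemin6* and 5 in *gemin7* mutants. The summed neuron marker level was 928 to 1071 TPM in *smn1* mutants and 1071 to 1137 TPM in their wild type. In *gemin7* mutants, where the list's median was lowest, it was 732 to 803 TPM, below all of the shared wild type (820 to 886 TPM). In *gemin2* (623 to 936 TPM), *gemin4* (741 to 863 TPM) and *gemin6* mutants (854 to 905 TPM) it overlapped that control, as it did its own control in *gemin3* (593 to 689.6 TPM) and *gemin5* mutants (1018 to 1113 TPM). Its part in the neurexin values was not tested.

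**Figure D4:**
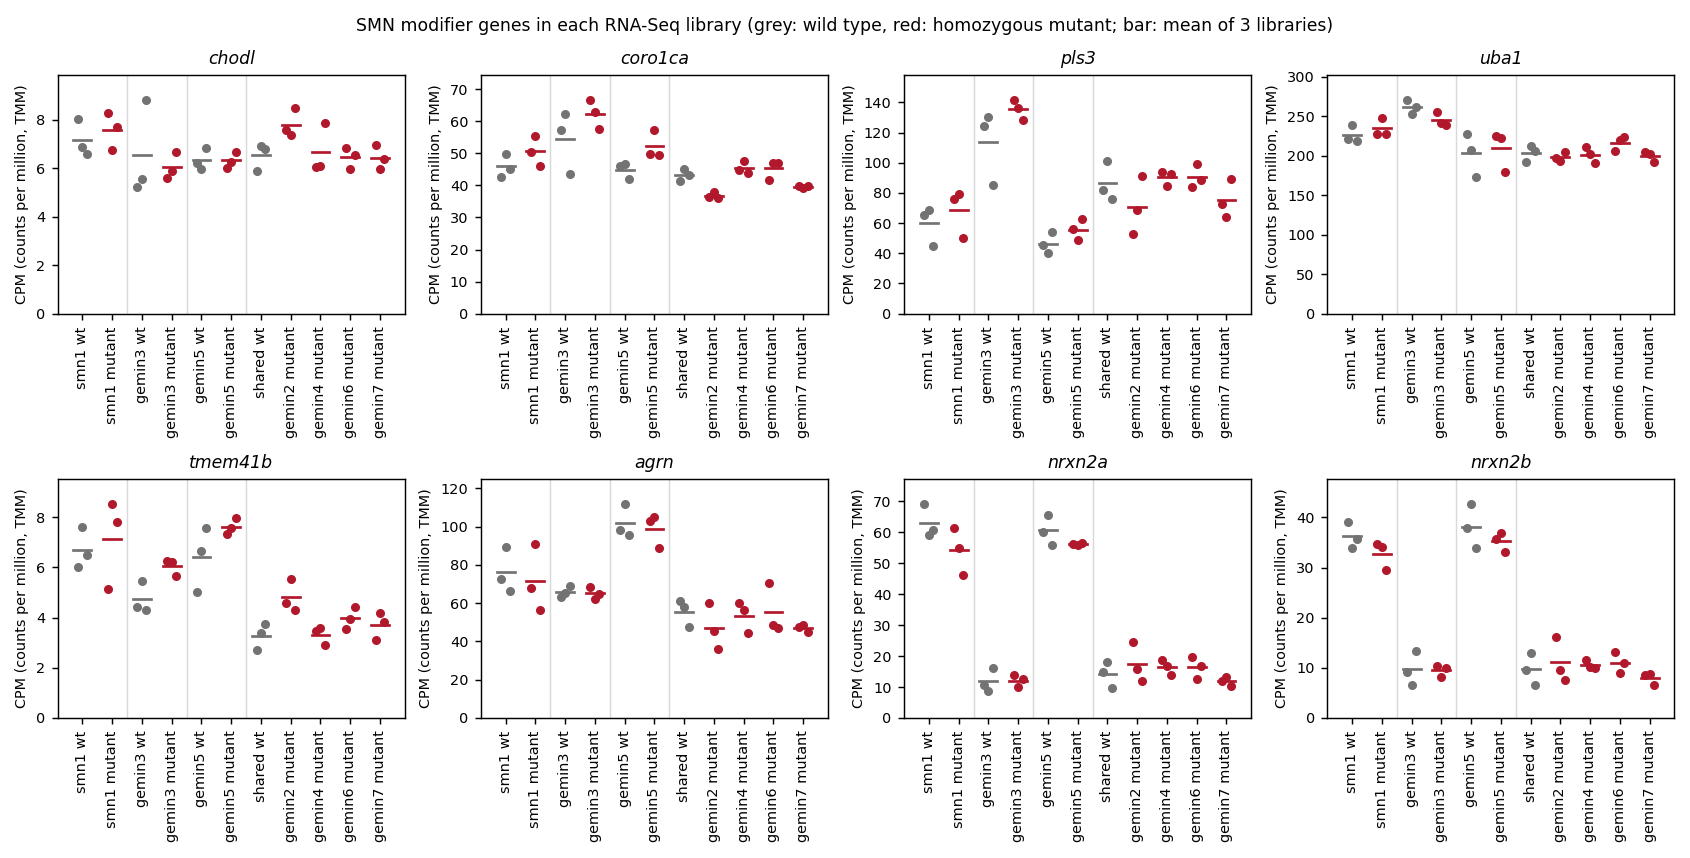
CPM of the 8 genes in each of the 33 libraries (points), wild type in grey and mutants in red, with bars for the mean of 3 libraries and vertical lines between the families and the shared control with its mutants. The neurexins of the *smn1* and *gemin5* families lie between 29.5 and 69.0 CPM in mutants and wild type alike, and those of all other groups between 6.55 and 24.6 CPM.

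For *nrxn2a*, *nrxn2b*, *tmem41b*, *agrn* and *pls3* the largest differences among the libraries were between families, not between genotypes. *chodl* was different, as its other wild-type groups were 0.97-fold to 1.09-fold the shared wild type. *nrxn2a* ranged from 46.1 to 69.0 CPM in the 12 libraries of the *smn1* and *gemin5* families, from 8.72 to 16.015 CPM in the 6 of the *gemin3* family and from 9.76 to 24.6 CPM in the 15 of the shared control and its mutants. For *nrxn2b* the ranges were 29.5 to 42.6, 6.55 to 13.3 and 6.59 to 16.1 CPM. In wild-type larvae alone, *nrxn2a* of the *smn1* and *gemin5* families was 4.55-fold and 4.37-fold the shared wild type, and *nrxn2b* was 3.84-fold and 4.03-fold. These 4 values exceeded those of 98.5% or more of all genes. *tmem41b* was 2.04-fold and 1.93-fold the shared wild type in these families, *agrn* 1.37-fold and 1.84-fold, and *pls3* 0.686-fold and 0.537-fold.

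A test of whether the 4 wild-type groups differed, chosen after the data had been seen, called 7 of the 8 genes in edgeR, all but *chodl* (adjusted p = 0.702). It also called 76.0% of all genes, so the 8 were not unusual in this. Family, parents, library preparation and sequencing run cannot be told apart in it. The summed level of 19 neuron marker identifiers was 1071 to 1137 TPM in the *smn1* and 999.6 to 1187 TPM in the *gemin5* wild type, against 820 to 886 TPM in the shared and 564 to 875 TPM in the *gemin3* wild type. In the *smn1* and in the *gemin5* wild type, 14 of the 19 were above the shared wild type. The shares of all genes were 49.5% and 48.9%. The medians of the neuron markers were 0.34 and 0.43 on the log2 scale. Single markers reached 2.03 and 2.18, beside 2.18 and 2.13 for *nrxn2a* and 1.94 and 2.01 for *nrxn2b*. Motor neuron markers were at 108 to 127 and 98.1 to 107 TPM against 95.4 to 99.1 TPM. The part of either in the neurexin values was not tested. The transcript length of *nrxn2b* was also family-bound: it was 3510 to 4015 bases in the *smn1* and *gemin5* families and 4096 to 4669 bases in the other 21 libraries.

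The study's design text sets the 3 mutants with impaired regeneration (*smn1*, *gemin3* and *gemin5*) against the other 4. In an edgeR fit of all 33 libraries in 11 groups, the mean log2 fold change of the first 3 minus that of the other 4 was tested for each gene, and 0 of 8 genes had an adjusted p-value below 0.05, as against 0.538% of all genes. DESeq2 called 0 of 8, among 0.909% of all genes. The count at an unadjusted edgeR p-value below 0.05 was 1, among 8.01% of all genes. That gene was *coro1ca*, whose mean log2 fold change was 0.18 in the first 3 and -0.06 in the other 4, a difference of 0.24 (SE 0.0997, 95% interval 0.04 to 0.44, edgeR adjusted p = 0.503). For *pls3* the difference was 0.33 (SE 0.188, interval -0.06 to 0.71). The differences were -0.02 for *tmem41b*, -0.00 for *uba1*, 0.09 for *agrn*, -0.07 for *chodl*, -0.21 for *nrxn2a* and -0.15 for *nrxn2b*, all with intervals that included 0.

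Whether the 7 differences from control were unequal among the mutants was tested as well, after the data had been seen. *coro1ca* had the smallest p-value of the 8 (edgeR adjusted p = 0.113), and 10.8% of all genes were called. Among 21 pairs of mutants and 8 genes, 1 of 168 edgeR tests had an adjusted p-value below 0.05. It was *coro1ca* between *gemin2* and *gemin6* mutants (difference of log2 fold changes -0.30, SE 0.103, edgeR adjusted p = 0.0450). In that pair 16.8% of all genes were called, and as both mutants have the same controls the value compares the mutants directly, 35.9 to 38.0 CPM in *gemin2* against 41.7 to 47.1 CPM in *gemin6*. The 2 mutants are of different families, so mutation and family cannot be told apart in it. Adjustment was over the genes within each pair and not over the 21 pairs.

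How the genes varied from library to library within groups was described by Pearson's r of log2 CPM over the 33 libraries after the mean of each of the 11 groups had been subtracted. The libraries share family, preparation and depth, and no test was made. *nrxn2a* and *nrxn2b* followed each other most closely of all pairs among the 8, with r = 0.965. Of the 20438 genes with a mean of at least 1 CPM, *nrxn2b* was also the one most like *nrxn2a*, followed by *rims1a* (r = 0.951), which encodes a protein of the presynaptic active zone. For *nrxn2b* the second was *grik5* (r = 0.935), a kainate receptor subunit. *agrn* followed both neurexins less closely (r = 0.657 with *nrxn2a* and 0.613 with *nrxn2b*), and it was most like 2 identifiers of *tenm3* (r = 0.896 and 0.894), a teneurin.

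*pls3* was most like *myh9* (r = 0.908), a non-muscle myosin heavy chain, and *scamp4* (r = 0.894). *coro1ca* was most like *cldnf* (r = 0.842), a claudin, and *mfng* (r = 0.812), and its r with *pls3* was 0.370. *coro1ca* and *chodl* varied in opposite directions (r = -0.709). Wild-type replicate 3 of the *gemin3* family was the highest of its group for *chodl* and the lowest for *coro1ca*, and its part in this r was not tested. *chodl* was most like *cbln2* (r = 0.886) and *foxa1* (r = 0.844). The 2 genes most like *uba1* were *emc4* (r = 0.858) and *mtrf1l* (r = 0.837), and those most like *tmem41b* were *ago3* (r = 0.758) and *brca2* (r = 0.741). The median r with all genes was between -0.0166 and 0.0188 for each of the 8.

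**Figure D5:**
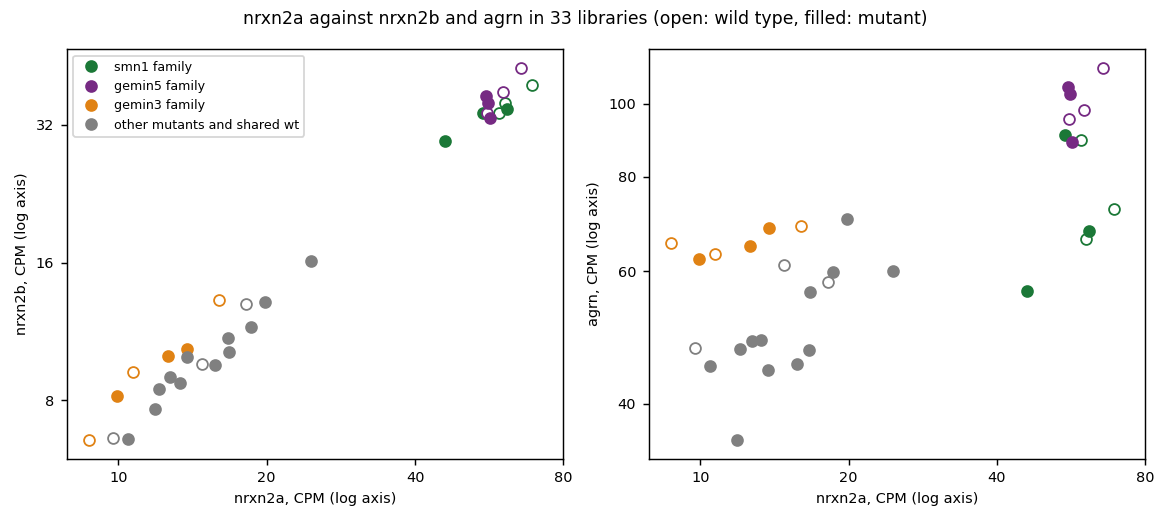
CPM of *nrxn2b* and of *agrn* (log axes) against CPM of *nrxn2a* (log axis) in the 33 libraries, coloured by family, with open points for wild type and filled points for mutants. *nrxn2a* and *nrxn2b* varied together within groups (within-group r = 0.965), and both were higher in the *smn1* and *gemin5* families than in all other libraries. *agrn* spreads more widely (within-group r = 0.657 with *nrxn2a*).

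Other genes of motor neuron disease, such as *sod1*, *fus*, *tardbp*, *vcp* and *ighmbp2*, were counted for comparison. Of 24 identifiers, 0 were called by edgeR in 6 of the mutants, with medians between -0.04 and 0.03, and 1 fell in *gemin2* mutants (5.39% of all genes called). It was *sqstm1*, the autophagy receptor p62, which had 91.6, 92.6 and 86.8 CPM there against 132.1, 181.7 and 185.2 CPM in the control (log2 fold change -0.88, SE 0.147, edgeR adjusted p = 0.0143). Motor neuron, neuron and glia markers had 0 calls by edgeR in all 7 mutants, with medians of -0.15 to -0.02, -0.18 to 0.06 and -0.07 to 0.12. Of 14 muscle marker identifiers 1 fell in *gemin2* mutants, the skeletal actin gene *acta1a* (log2 fold change -0.96, edgeR adjusted p = 0.0106). Of the 14, 9 were above 0 there, as were 50.0% of all genes.

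The counts of these lists are from the fit without the replicate block. With the block, in which 7.52% of all genes were called in *gemin5* mutants, more list members were called there by edgeR. Of the muscle markers 4 rose, of the neuron markers 2 fell and of the motor neuron markers 1 fell, while the actin-binding list had 2 that rose and 2 that fell. In the same fit 1 of the agrin pathway and 1 of the other motor neuron disease genes rose, and 1 of the neurexin and neuroligin list fell. In *gemin3* mutants, with 1.98% of all genes called, 2 muscle markers and 1 of the other motor neuron disease genes rose. In *smn1* mutants the count was 0 in each list, with 1.54% of all genes called.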

How the data were processed

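RNA-Seq reads of 33 libraries had been aligned by the authors to GRCz10 (danRer10 in the submitters' processing notes) with STAR, and RSEM had been used for quantification. The notes also list Trimmomatic 0.36 and HISAT2 2.2.1.0. The deposited tables hold, per Ensembl gene, RSEM expected counts, TPM, and an abundance-weighted transcript length. Their FPKM values and 15 small RNA libraries were not used here. Of 34707 identifiers, 26982 were named from the gene table and 414 from the supplementary tables. Expected counts were rounded to whole numbers. The 3 libraries of a mutant and the 3 of its control were fitted together with edgeR 4.0.16 in R 4.3.3 (filterByExpr, TMM, quasi-likelihood test, Benjamini-Hochberg adjustment over all genes, threshold 0.05). Standard errors were obtained from the log2 fold change and its F statistic, and 95% intervals use the fit's total degrees of freedom. CPM are TMM-normalized over all 33 libraries. DESeq2 1.42.0, RLE normalization, no filter, a replicate block, 1 fit of all libraries, leaving out libraries and, for *gemin4*, *gemin6* and *gemin7*, 1 wild-type library (their own family's) were the alternatives. Scripts were tested on simulated data.

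Same-numbered mutant and wild-type libraries deviated from their group means together in *smn1* (r of 0.441 to 0.651 across genes), *gemin3* (0.140 to 0.371) and *gemin5* (0.334 to 0.638). The numbers were therefore read as pairs there and in no other comparison. The main fits did not use these pairs, which entered only through the replicate block and the differences between same-numbered libraries. As an alternative the block was nonetheless fitted in all 7 comparisons and in the contrast of the 3 with the 4 mutants. No 2 libraries of a group agreed within sampling noise (smallest chi-square per degree of freedom 10.2). The 8 genes and the 10 lists of other genes and markers were chosen with earlier results of these data known. The test of the 4 wild-type groups, that of the 7 differences and the pairs of mutants were added after the data had been seen. Besides the 8, the genes named were those called in a list (at most 3 per list and mutant), the 2 genes most like each of the 8, and the mutated genes.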

Additional observations from a re-analysis of the deposited data

Results flagged for a closer look

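*coro1ca* lay on opposite sides of the control in different mutants. All 3 *gemin5* mutant libraries were above all of their controls, whereas all 3 *gemin2* and all 3 *gemin7* mutant libraries were below all of theirs. The *gemin2* and *gemin7* values rest on the same 3 shared controls and are not independent. Mutant and control libraries did not overlap for 18.3% of all genes in *gemin5*, 27.5% in *gemin2* and 13.8% in *gemin7* mutants. The *gemin5* log2 fold change exceeded that in *gemin2* by 0.45 (SE 0.145, 95% interval 0.15 to 0.75, edgeR adjusted p = 0.0766, 4.32% of all genes called) and that in *gemin7* by 0.35 (SE 0.145, interval 0.05 to 0.64, edgeR adjusted p = 0.585, 0.175% of all genes called), so neither difference passed the test. The difference between *gemin2* and *gemin6* mutants, of -0.30 on the log2 scale (interval -0.51 to -0.09), did pass (edgeR adjusted p = 0.0450), in a pair in which 16.8% of all genes were called. As *gemin2* and *gemin6* mutants are of different families, mutation and family cannot be told apart in this difference. These pairs were tested after the data had been seen, with adjustment over the genes within each pair and not over the pairs.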

How the results depend on the processing

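The number of the 8 genes called was 0 under all alternatives and all libraries left out in *smn1*, *gemin3*, *gemin4*, *gemin6* and *gemin7* mutants and in the contrast of the 3 with the 4 mutants. It was 1 in *gemin5* mutants with the replicate block (*pls3*, log2 fold change 0.27, edgeR adjusted p = 0.0194) and 1 in *gemin2* mutants in the fit of all 33 libraries (*tmem41b*, 0.55, edgeR adjusted p = 0.0451), and the causes were not tested. The block changed no other call among the 8. Over 328 further values under alternatives with a test, 3 changed sign, the largest main value among them being -0.03 (*nrxn2b* in *gemin3* mutants), and none moved by more than its standard error. Leaving out 1 library or replicate number changed the sign of 56 of 360 values, up to a main value of 0.29 (*nrxn2a* in *gemin2* mutants, -0.03 without mutant replicate 1), and moved 19 by more than a standard error. With only their own family's wild-type library as control, 7 of 24 log2 ratios changed sign, among them *nrxn2a* in *gemin7* mutants (0.29). The share of all genes called over the alternatives ran from 0.0 to 1.54% in *smn1*, 0.238 to 2.91% in *gemin3*, 0.13 to 7.52% in *gemin5*, 1.38 to 11% in *gemin2*, 0.00428 to 0.369% in *gemin4*, 0.0 to 0.0764% in *gemin6* and 0.0 to 0.276% in *gemin7* mutants, and from 0.0773 to 0.909% in the contrast. In *gemin2*, *gemin4*, *gemin6* and *gemin7* comparisons the replicate numbers were not read as pairs, because r did not exceed 0.1 for all same-numbered libraries. Counts per library were 92 to 560 for *tmem41b* and 182 to 620 for *chodl*, and their part in the standard errors of these genes was not tested.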
